A study of Mus musculus with 6 samples.

Results

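This section describes 38 genes of pre-mRNA splicing in hearts of mouse embryos that lack Rnd3. They are the genes whose platform annotation gives 1 symbol starting with Hnrn, Srsf, Sf3a or Sf3b, 38 of 18193 genes so named, and comprise 19 hnRNP genes, 10 SR genes and 9 genes of the SF3 complexes. RNA came from embryo heart tissue at E10.5 on the C57BL/6N background, 3 wild-type (WT) and 3 knockout (KO) samples, each read on 1 Affymetrix mouse expression array. The KO samples carry a gene trap in Rnd3, also called RhoE, in every tissue, and the series' design states that such embryos die at about this stage or soon after. It speaks of littermate pairs of embryos, without saying which replicate numbers share a litter.

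Splicing removes introns from nuclear transcripts, and the genes described here act at its early steps. Heterogeneous nuclear ribonucleoproteins (hnRNPs) coat nascent RNA and often, though not always, hold back the use of nearby splice sites. SR proteins, named for their serine and arginine rich tails, bind exons and recruit the splicing machinery. SF3a and SF3b are the protein complexes of the U2 small nuclear ribonucleoprotein (snRNP), which selects the branch point of the intron. Hearts depend on several of them, among them Hnrnpu, Srsf1 and Srsf10, whose loss disturbs heart development or function in mice.

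Values are MAS5 signals on a linear scale, which the authors deposited scaled so that every array has a trimmed mean of 499.8. A signal also depends on the probes, so levels of different genes were not compared. The limit for a low signal was each array's 40th percentile, between 44.5 and 52.8. All 38 genes entered the test, which required a signal above that limit on 3 or more arrays, and 37 of them were above it on all 6 arrays. Srsf12 was the other, above it on 3 arrays.

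The groups differed in more than Rnd3. Rnd3 had signals of 909, 954 and 862 on the WT and 5.89, 12.3 and 121 on the KO arrays (log2 fold change -5.46, limma adjusted p = 0.0344). Xist, which marks female tissue, read 10251 to 12474 in WT but 539 and 28.4 on KO arrays 1 and 3, against 8884 on KO array 2, so genotype and the sex of the tissue cannot be fully told apart. The ratio of 3' to 5' Gapdh signal, a sign of RNA integrity, was 1.09 to 1.13 in WT and 0.939 to 0.993 in KO, with no overlap. The same ratio for Actb was 2.35 to 2.62 in WT and 2.22 to 2.54 in KO, and overlapped. All 8 cardiomyocyte markers were above the limit on all arrays, and 0 of the 8 passed the test with limma (2 had an unadjusted p under 0.05, both lower). Of these 8, 6 had negative values, and Myh6 (-0.25), Myl2 (-0.14) and Nkx2-5 (-0.29) were lower on every KO array, while none was higher on every KO array. For liver with yolk sac endoderm, 9 markers were tested, all 9 with lower values in KO and 1 of them past the test, and the summed signal of the 12 on the array was 1949 to 8040 in WT and 726 to 2402 in KO. The one past the test was Alb, at 87.8, 148 and 183 in WT against 51.9, 36.8 and 20.7 in KO (limma adjusted p = 0.049997). Its KO signals were near or below the limit. Afp, a serum protein of both tissues, had 1116, 2496 and 6054 in WT against 216, 1074 and 2.78 in KO, and did not pass (adjusted p = 0.125). The summed signal of 8 macrophage markers was 883 to 971 in WT and 916 to 2095 in KO, highest on KO array 2, with 1 of 6 tested markers higher past the test. Neuronal markers summed to 794 to 1063 in WT and 759 to 799 in KO. The neuronal, erythroid and endothelial sums each overlapped between the groups, and 0 of the 19 tested markers of these 3 lists passed with limma (2 had an unadjusted p under 0.05). No tested marker was listed at 0, and the part of sex, RNA integrity or other cell types in the results below was not tested.

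KO hearts differed from WT hearts in the RNA of 1 of the 38 splicing factor genes past the threshold, Hnrnpl. Hnrnpl fell, while 37 genes did not pass and none rose, where limma called 162 of 12712 genes (1.27%), 0.488% lower and 0.787% higher. The median log2 fold change of the 38 genes, KO minus WT, was -0.10, and that of all genes tested was -0.04. It was -0.05 for the 38 genes with the arrays centred on their medians, beside 0.01 for all genes. Of the 38, 21 had a negative and 17 a positive value. Standard errors of the 38 genes ranged from 0.06 to 0.49 with a median of 0.085, against a median of 0.14 over all genes, and Srsf12 alone had a value beyond 1.5-fold. The signals of WT and KO did not overlap for 17 of the 38, 13 of them lower and 4 higher in KO, while over all genes 26.3% did not overlap, 15.5% lower and 10.8% higher. An unadjusted p under 0.05 was reached by 12 of the 38, 9 lower and 3 higher, and by 20.3% of all genes (11.8% lower and 8.54% higher). At an adjusted p under 0.10 there were 5, namely Hnrnpl, Hnrnpul2 and Hnrnpll lower and Srsf3 and Sf3b6 higher, where all genes had 6.33% (3.12% lower and 3.22% higher). In these bulk samples fewer cells of a type and less RNA per cell cannot be told apart.

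**Figure D1:**
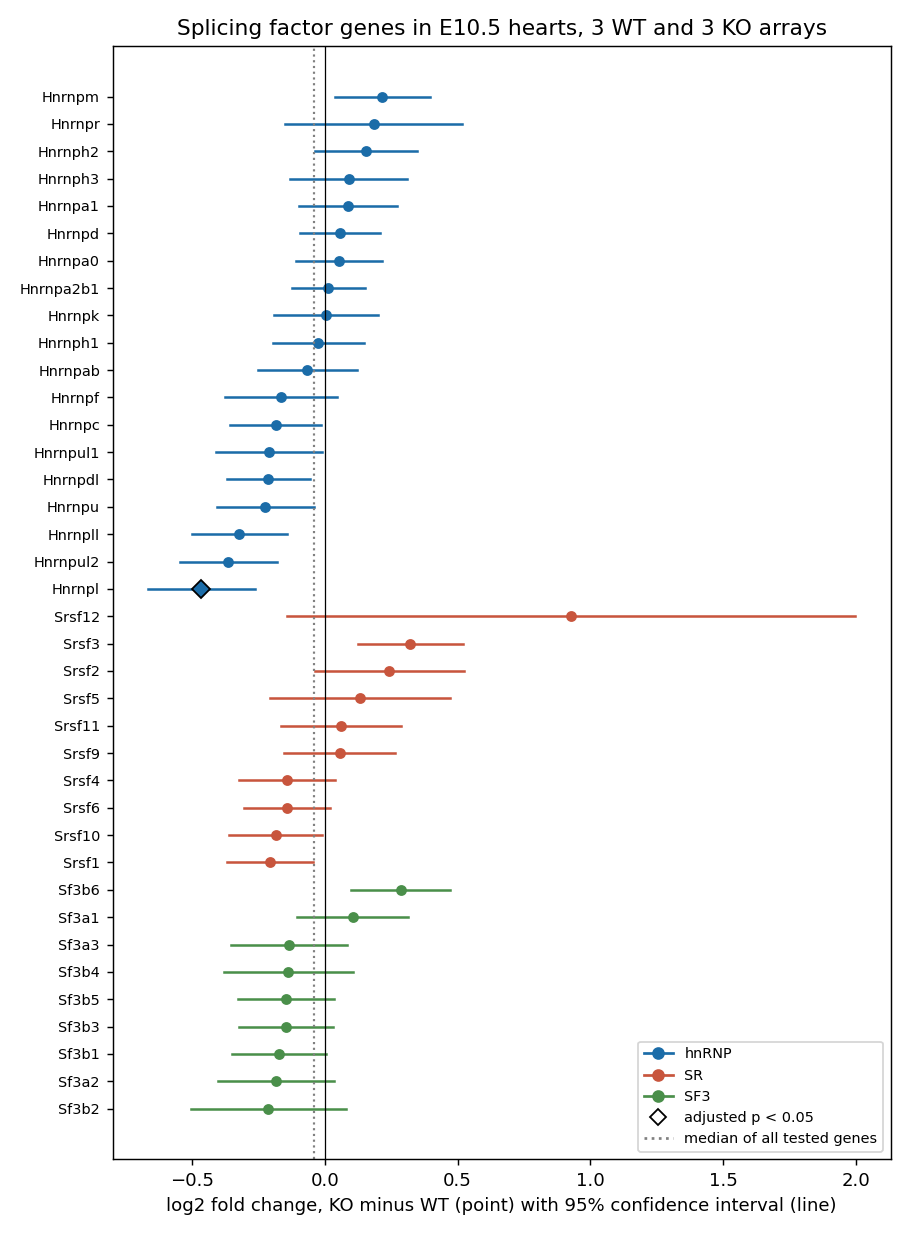
Log2 fold change, KO minus WT, of the 38 splicing factor genes (points) with limma's 95% confidence interval (lines), ordered within the hnRNP, SR and SF3 genes; the dotted line is the median of all tested genes (-0.04). Hnrnpl (diamond, -0.47) is the gene past an adjusted p of 0.05, and Srsf12 has the widest interval.

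By family, the 19 hnRNP genes had a median log2 fold change of -0.03 and ranged from -0.47 to 0.22, with 1 of 19 past the test, lower. The 10 SR genes had a median of 0.06 and a range of -0.21 to 0.93, with 0 past the test. The 9 SF3 genes had a median of -0.15 and a range of -0.21 to 0.29, also with 0 past the test. By limma's unadjusted p under 0.05 these counts were 8, 3 and 1, where all genes had 20.3%. Within SF3, 7 of 9 values were negative, the exceptions being Sf3b6 and Sf3a1. Whether the families differ from one another was not tested.

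Hnrnpl, which binds CA-rich RNA and steers alternative exons, had signals of 6898, 7688 and 6978 on the WT and 5557, 4625 and 5464 on the KO arrays. Every KO array lay below every WT array, and KO array 2 was the lowest. The log2 fold change was -0.47 (SE 0.09, 95% confidence interval -0.67 to -0.27, limma adjusted p = 0.0421, n = 3 per group), or 0.724 of the WT level. The call was lost without WT array 1, 2 or 3 (adjusted p = 0.150, 0.207 and 0.120) and without KO array 2 or 3 (0.0632 and 0.126). It was kept without KO array 1 (0.0193), and the log2 fold changes of these 6 fits were -0.51 to -0.38. Over all genes, the fits without WT array 1, 2 or 3 called 0, 0 and 4, against 162 with all arrays. Those without KO array 2 or 3 called 65 and 2, and that without KO array 1 called 916. The other Hnrnpl probe set was below the limit on all 6 arrays, at 1.81, 1.62 and 14.3 in WT and 36.7, 21.9 and 31.6 in KO, so the mean of both probe sets had the opposite sign (1.31, adjusted p = 0.172).

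Its paralog Hnrnpll, known for directing exon choice in the Ptprc transcript of lymphocytes, had signals of 7034, 6525 and 6306 on the WT and 5520, 4953 and 5416 on the KO arrays. The groups did not overlap, with a log2 fold change of -0.32 (SE 0.08, adjusted p = 0.0677), which missed the threshold. Its other tested probe set went the other way, at 3289, 3376 and 3288 in WT and 3517, 3741 and 4135 in KO (0.19, SE 0.09), again without overlap. Hnrnpll passed without KO array 1 (adjusted p = 0.0432), a fit that called 916 genes against 162 with all arrays, and did not pass without any other single array (0.125 to 0.226).

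Hnrnpu, Hnrnpul1 and Hnrnpul2 encode related proteins with a SAP domain that binds scaffold DNA. At the probe set used, all 3 had lower signals on every KO array than on any WT array, as did 15.5% of all genes. None of the 3 passed the test. Hnrnpul2 had signals of 2660, 2581 and 2587 on the WT and 2053, 2076 and 1951 on the KO arrays, tightly grouped on both sides. Its log2 fold change was -0.36 (SE 0.08, adjusted p = 0.0560), which missed the threshold. Hnrnpul2 passed without KO array 1 (adjusted p = 0.0417), the fit that called 916 genes against 162 with all arrays. It did not pass without any other single array (0.0741 to 0.215). The other Hnrnpul2 probe set had signals of 1962, 1838 and 1667 on the WT and 1630, 1320 and 1564 on the KO arrays, also without overlap (-0.28, SE 0.11). Hnrnpu, the scaffold attachment factor A that organises nuclear RNA and chromatin, had signals of 15629, 14521 and 15569 on the WT and 14458, 11756 and 13032 on the KO arrays (-0.22, SE 0.08, adjusted p = 0.169). At its probe sets 1423051_at (0.05) and 1450849_at (-0.05) the groups overlapped. Hnrnpul1 had signals of 6438, 5796 and 7313 on the WT and 5609, 5522 and 5683 on the KO arrays (-0.21, SE 0.09, adjusted p = 0.225), so its KO arrays lay close together and its WT arrays did not.

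**Figure D2:**
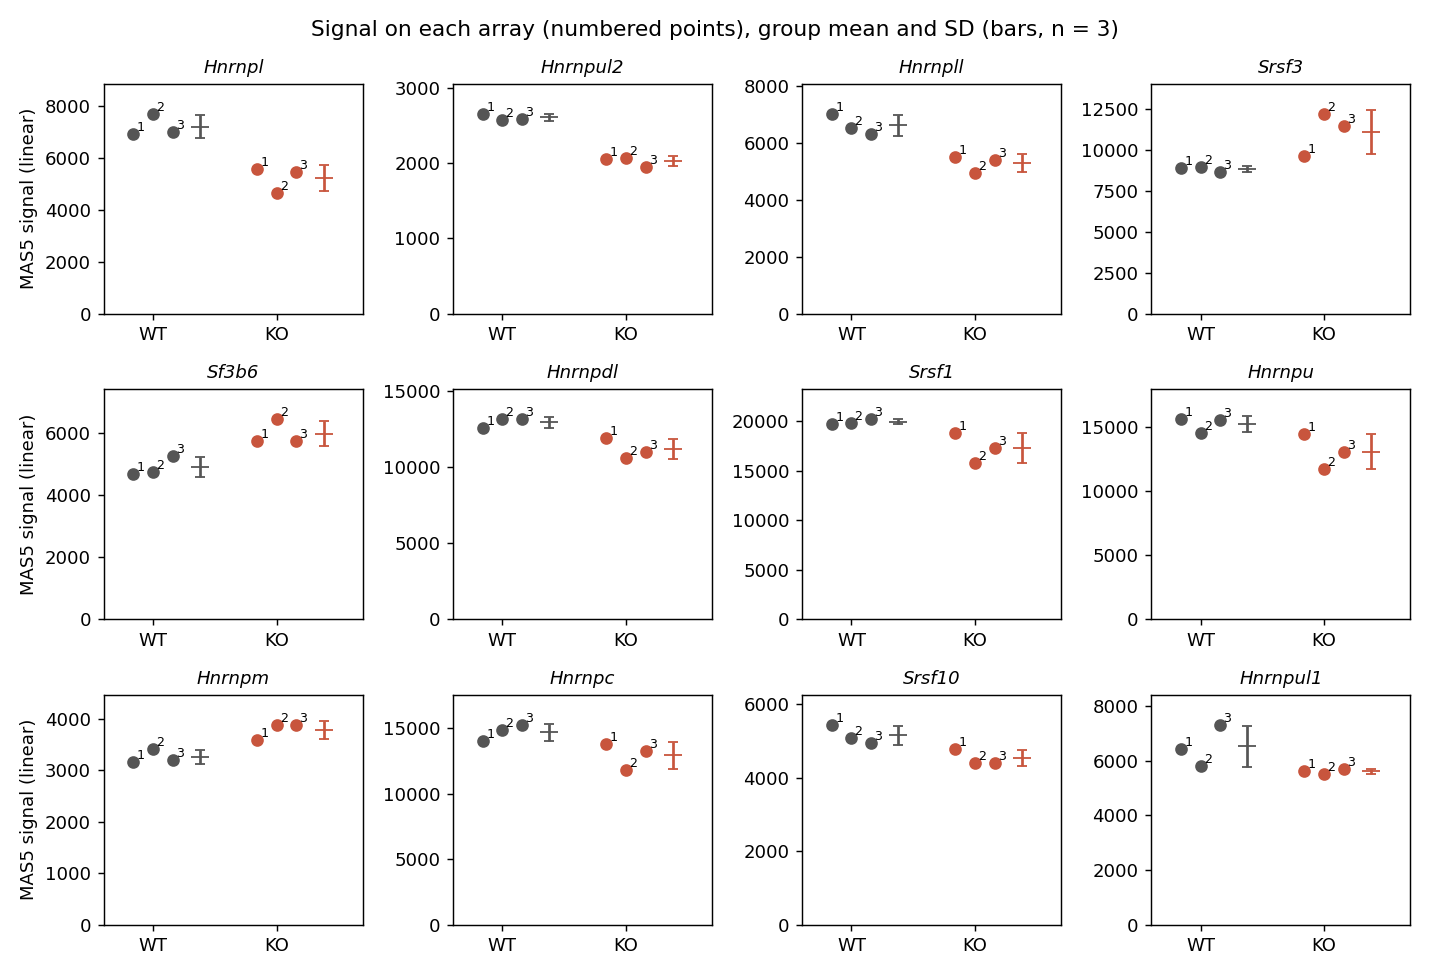
MAS5 signal (linear axis from 0) on each array for the 12 genes with the smallest p among those whose groups do not overlap; points carry the replicate number, and bars give the group mean and SD (n = 3). Of the 12, 9 are lower in KO, and Srsf3, Sf3b6 and Hnrnpm are higher.

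Among the other hnRNP genes, Hnrnpdl, a close relative of Hnrnpd, had signals of 12518, 13124 and 13109 on the WT and 11886, 10584 and 10973 on the KO arrays (-0.21, SE 0.07, adjusted p = 0.131). Hnrnpc, which binds uridine tracts and keeps cryptic exons out of transcripts, had signals of 13973, 14811 and 15257 on the WT and 13749, 11774 and 13248 on the KO arrays (-0.19, SE 0.08, adjusted p = 0.209). In both genes KO array 2 was the lowest and KO array 1 the closest to WT. Hnrnpm, a regulator of alternative exons, was the hnRNP gene with the largest positive value, at 3163, 3408 and 3198 in WT and 3587, 3884 and 3879 in KO (0.22, SE 0.08, adjusted p = 0.174). Hnrnph2, of the G-tract binding group with Hnrnpf, Hnrnph1 and Hnrnph3, was the other hnRNP gene that was higher on every KO array (0.16, SE 0.09, adjusted p = 0.347). Within that group Hnrnpf had -0.17, Hnrnph1 -0.03 and Hnrnph3 0.09, each with overlapping arrays.

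Several hnRNP genes had groups that overlapped at the probe set used, with values there close to 0 except for Hnrnpr. Other probe sets of Hnrnpa1, Hnrnpa2b1, Hnrnpab, Hnrnpk and Hnrnpr, some of them lower, are given further below. Hnrnpk, whose KH domains bind cytosine-rich RNA, had signals of 18551, 21205 and 23044 on the WT and 22935, 20282 and 19642 on the KO arrays, a log2 fold change of 0.0038 with a 95% confidence interval of -0.19 to 0.20. Hnrnpa2b1, of the A/B core group, had signals of 18969, 19039 and 20011 on the WT and 20039, 19580 and 18909 on the KO arrays, with an interval of -0.13 to 0.15. Hnrnpab, another A/B type protein, had signals of 21476, 23990 and 26144 on the WT and 24478, 20921 and 22929 on the KO arrays (-0.07, interval -0.25 to 0.12). The groups overlapped in all 3 genes. Hnrnpa1, the best-known exon-skipping hnRNP, had signals of 2940, 3223 and 3066 on the WT and 3132, 3449 and 3229 on the KO arrays (0.09, interval -0.10 to 0.27). Hnrnpr, a relative of Syncrip, had signals of 5946, 7207 and 9427 on the WT and 9709, 8402 and 7250 on the KO arrays (0.18, SE 0.15), the largest standard error of the hnRNP genes. Hnrnpd and Hnrnpa0 had 0.06 and 0.05, with overlap.

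The SR genes with the smallest p went in opposite directions. Srsf3, the smallest SR protein, which also couples splicing to mRNA export, had signals of 8899, 8972 and 8647 on the WT and 9619, 12206 and 11462 on the KO arrays. All KO arrays were above WT, array 1 by the least, and the log2 fold change was 0.32 (SE 0.09, interval 0.12 to 0.52, adjusted p = 0.0899). Without KO array 1 it was 0.42 and passed (adjusted p = 0.0175), in the fit that called 916 genes against 162 with all arrays. Without any other single array it was 0.25 to 0.33 and did not pass (0.177 to 0.255). Srsf1, the prototype SR protein, had signals of 19726, 19847 and 20193 on the WT and 18838, 15806 and 17268 on the KO arrays (-0.21, SE 0.07, adjusted p = 0.156). Srsf10, an SR protein that represses splicing when it is dephosphorylated, had signals of 5445, 5080 and 4949 on the WT and 4787, 4410 and 4412 on the KO arrays (-0.19, SE 0.08, adjusted p = 0.223). The KO arrays of both lay wholly below WT. Srsf4 and Srsf6, close relatives of each other, did so as well (-0.14 each, adjusted p = 0.359 and 0.306).

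The other SR genes overlapped between the groups. Srsf2, also known as SC35 and a marker of nuclear speckles, had signals of 6723, 10230 and 7992 on the WT and 9239, 10351 and 9510 on the KO arrays (0.24, SE 0.13, adjusted p = 0.314), with WT array 2 inside the KO range. Srsf11 had signals of 6355, 5925 and 5082 on the WT and 5621, 6736 and 5736 on the KO arrays (0.06, SE 0.10). Srsf5 and Srsf9 had 0.13 and 0.06. Srsf12, the dim member, had signals of 51.9, 21.5 and 33.8 on the WT and 46.5, 95.3 and 58.4 on the KO arrays. Its log2 fold change of 0.93 has an interval of -0.14 to 2.00, and 2 WT arrays and 1 KO array were below the limit.

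Of the SF3 genes, Sf3b6, which encodes a small SF3b protein, had higher signals on every KO array at 3 of its 4 probe sets. It had signals of 4694, 4764 and 5271 on the WT and 5755, 6454 and 5749 on the KO arrays, with no overlap (0.29, SE 0.08, interval 0.10 to 0.47, adjusted p = 0.0990). Another Sf3b6 probe set had signals of 2992, 2903 and 3060 on the WT and 3841, 5848 and 4762 on the KO arrays, the higher values again all in KO (0.67, SE 0.13, adjusted p = 0.0507 over 23339 probe sets). The next had signals of 2940, 3755 and 2864 on the WT and 3963, 4864 and 4162 on the KO arrays (0.45, SE 0.12, adjusted p = 0.0978). The dimmest was near the limit (0.69, SE 0.49). All 4 were thus positive, and none passed in that fit.

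The other SF3b genes had negative values. Sf3b1, the large subunit that cradles the branch helix, had signals of 5404, 5495 and 5404 on the WT and 4962, 4444 and 5080 on the KO arrays, without overlap (-0.17, SE 0.08, adjusted p = 0.254). Sf3b5, a small structural subunit, had signals of 9514, 10437 and 10859 on the WT and 9370, 8543 and 9930 on the KO arrays (-0.15, SE 0.08, adjusted p = 0.349), and KO array 3 lay within the WT range. Sf3b2 had signals of 4863, 4520 and 6553 on the WT and 5112, 4306 and 4203 on the KO arrays (-0.21, SE 0.13). Sf3b3 did not overlap (-0.15, adjusted p = 0.337), and Sf3b4 did (-0.14). In SF3a, which joins SF3b to the rest of the U2 particle, Sf3a1 had signals of 1370, 1414 and 1367 on the WT and 1408, 1448 and 1616 on the KO arrays (0.10, SE 0.09), while Sf3a2 and Sf3a3 had -0.18 and -0.14, all with overlap.

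Promoters are shown for the gene that passed, Hnrnpl, and for the SR and the SF3 gene with the largest positive value among those without overlap, Srsf3 and Sf3b6. Each is the 250 bases before the start in RefSeq (GRCm38.p6), in lower case with motif matches on either strand in capitals. Common promoter motifs, spelled out after the sequences, were searched.
Hnrnpl promoter (chr7:28810640-28810889, + strand): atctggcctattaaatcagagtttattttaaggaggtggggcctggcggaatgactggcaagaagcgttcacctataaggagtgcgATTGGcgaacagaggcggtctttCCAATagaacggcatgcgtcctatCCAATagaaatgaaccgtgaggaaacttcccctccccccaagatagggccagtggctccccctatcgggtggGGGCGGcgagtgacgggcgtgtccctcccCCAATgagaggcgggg
Srsf3 promoter (chr17:29032410-29032659, + strand): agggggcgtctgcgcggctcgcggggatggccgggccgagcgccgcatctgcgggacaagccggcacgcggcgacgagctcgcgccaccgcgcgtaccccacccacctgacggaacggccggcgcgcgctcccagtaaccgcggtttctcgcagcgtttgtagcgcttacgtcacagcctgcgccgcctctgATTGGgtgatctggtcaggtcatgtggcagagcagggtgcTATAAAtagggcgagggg
Sf3b6 promoter (chr12:4817358-4817607, + strand): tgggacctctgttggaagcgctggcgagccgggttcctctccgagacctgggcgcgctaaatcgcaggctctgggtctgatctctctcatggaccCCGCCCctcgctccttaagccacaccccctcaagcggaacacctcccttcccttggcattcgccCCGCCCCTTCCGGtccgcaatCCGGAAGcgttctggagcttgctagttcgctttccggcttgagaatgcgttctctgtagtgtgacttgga
The Hnrnpl window holds 4 CCAAT boxes, 1 of them reversed, and 1 GC box. That of Srsf3 holds 1 reversed CCAAT box and a TATA box that begins 18 bases before the start. That of Sf3b6 holds 2 reversed GC boxes, and 2 ETS matches of opposite strand that begin 85 and 70 bases before the start, the first adjoining a GC box. No motif searched was found in all 3 windows.

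RefSeq promoters were matched for 34 of the 38 genes, in 47 windows, and those of Hnrnpll, Hnrnpul2, Sf3b4 and Sf3b5 were not analysed here. The windows had a median GC content of 64.0% and a median CpG ratio, observed over expected, of 0.919. Windows of all tested genes had 59.6% and 0.708. The core bound by ETS factors (CCGGAAG) was in 31.9% of the 47 windows, from 11 genes, against 12.7% of 13157 windows of tested genes and 6.91% of 32851 in all. The GC box (GGGCGG) was in 74.5% of the 47, against 56.7% and 32.7%. The box named for its letters CCAAT was in 46.8%, against 34.9% and 33.8%. The TATAAA element was in 8.51%, against 6.73% and 12.4%. The NRF1 core (GCATGCGC) was in 4.26%, against 4.13% and 2.26%. The YY1 core (AAGATGG) was in 2.13%, against 4.07% and 4.49%. The cyclic AMP response element (TGACGTCA) was in 0 of the 47, against 2.44% and 1.55%. No searched motif contains another. These are counts of letters, and several windows come from 1 gene.

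Probe sets of 1 gene often gave different values. The 38 genes had 121 probe sets of their own, of which 115 were tested one by one, 70 of them negative, with a median of -0.10 against -0.03 over 23339 probe sets. Of the 28 genes with more than 1 tested probe set, 19 had values of both signs. The sign matched that of the probe set used for the gene in 47 of 77 others (61.0%), and in 56.8% of 10615 such probe sets over all genes. Which stretch of a transcript each probe set reads was not analysed here. Adjusted over all probe sets, the one used for Hnrnpl missed the threshold (limma adjusted p = 0.0524). At an adjusted p of 0.05 over all probe sets, 1 of the 115 passed, where 0.63% of all did.

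That probe set was 1434391_at of Hnrnpu, at 1142, 1044 and 997 in WT and 651, 680.2 and 506 in KO, with no overlap (-0.80, SE 0.13, adjusted p = 0.0354). It kept its call without KO array 1 or 2, and it did not pass without KO array 3 or without any single WT array. Over all probe sets, 147 passed with all arrays. Without KO array 3 that count was 2, and without WT array 1, 2 or 3 it was 0, 0 and 6. The other 3 Hnrnpu probe sets that were not used for the gene had -0.58, -0.05 and 0.05. Hnrnpdl had a similar span: 1424252_at had signals of 2566, 2686 and 1861 on the WT and 1668, 1421 and 1262 on the KO arrays (-0.70, SE 0.15, adjusted p = 0.0611), while 1449039_a_at had 0.08. The groups of 1424252_at did not overlap.

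In Hnrnpk, 1454692_x_at had signals of 543, 682 and 472 on the WT and 430, 355 and 312 on the KO arrays (-0.63, SE 0.17), while the gene's other 3 probe sets had 0.0038 to 0.15. In Hnrnpr, 1438807_at had signals of 361, 335 and 249.6 on the WT and 234, 211 and 184 on the KO arrays (-0.58, SE 0.18), against 0.18 for the one used. Both were lower on every KO array than on any WT array. The Hnrnpr probe set 1427129_a_at was higher on every KO array, at 6190, 6134 and 6379 in WT and 6899, 7609 and 6499 in KO (0.16, SE 0.08). Its remaining tested probe sets had 0.02 and -0.03. Hnrnpa1 had -0.33 (SE 0.12) and -0.42 (SE 0.19) at its other probe sets, both with overlap. Hnrnpa2b1 had -0.12 (SE 0.08), -0.20 (SE 0.08) and -0.33 (SE 0.12). Those at -0.20 and -0.33 were lower on every KO array than on any WT array. Hnrnpab had from -0.38 to 0.13, and none of these probe sets passed. Hnrnpc had 0.0097 at its other tested probe set.

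In the SR genes, Srsf3 had 3 further positive probe sets (0.14 to 0.34) and 2 negative ones. Of these, 1416151_at had signals of 2399, 2121 and 2199 on the WT and 2063, 1932 and 1740 on the KO arrays (-0.23, SE 0.10), and 1438215_at 353, 271 and 256 in WT and 217, 244 and 151 in KO (-0.54, SE 0.20). Thus signals of the same gene were wholly higher and wholly lower in KO, depending on the probe set. Srsf10 had 0.31 at 1418527_a_at against -0.19 at the one used, and Srsf11 -0.60, -0.60 and -0.21 against 0.06. The other 5 tested Srsf1 probe sets had -0.10 to 0.12. In SF3, Sf3b1 had 0.30 at 1418562_at and -0.38 at 1418561_at, Sf3b2 0.45 at 1456040_at, and Sf3a1 -0.29 and -0.39 against 0.10.

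**Figure D3:**
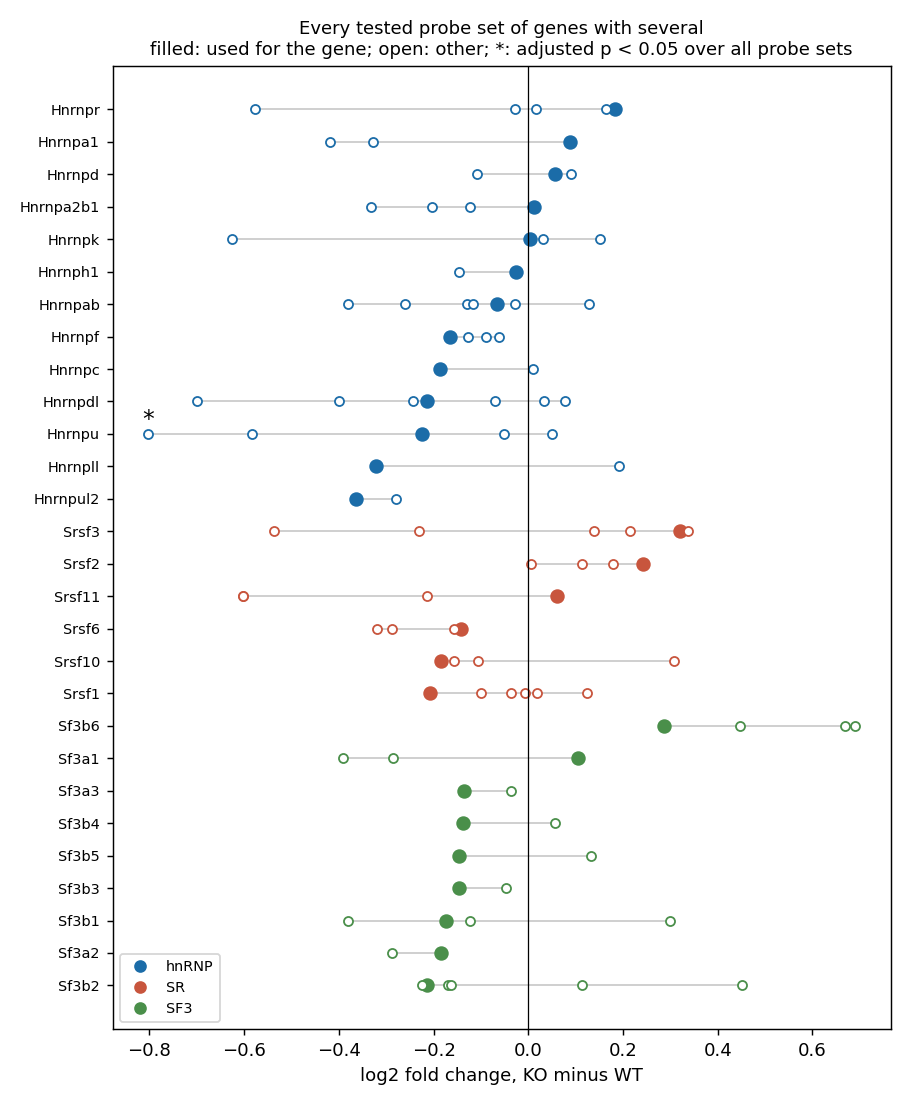
Log2 fold change, KO minus WT, of every tested probe set for the 28 genes with more than 1; filled points are the probe set used for the gene, open points the others, and the star marks the probe set past an adjusted p of 0.05. Values of both signs occur in 19 of the 28 genes, while all 4 of Sf3b6 are positive.

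The difference between probe sets of a gene was tested directly, as the KO minus WT change in the log2 distance of each other probe set from the one used, with limma over 10615 such pairs. None of the 77 pairs of these genes passed, nor did any pair over all genes (0 called, 0%), and the smallest adjusted p was 0.251 among the 77 and 0.238 overall. At an unadjusted p under 0.05 there were 15 of 77, where all genes had 15%. The largest distances among these were -0.86 for 1438215_at of Srsf3, 0.66 for 1456040_at of Sf3b2 and -0.66 for 1430077_at of Srsf11, and the smallest p was that of Hnrnpll (0.51, SE 0.13). Differences between 2 probe sets neither of which was used for the gene were not tested.

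KO arrays were not alike in these genes. Set against the WT mean of each gene, the median deviation of the 38 genes was -0.03 on KO array 1, -0.14 on KO array 2 and -0.09 on KO array 3, and -0.04 to 0.02 on the WT arrays. Over all tested genes it was -0.01, -0.03 and -0.04. KO array 2 held the lowest of the 6 signals for 15 of the 38 genes and the highest for 13, while over all tested genes it held the lowest for 26.3% and the highest for 22.3%. KO array 1 held the lowest for 1 and the highest for 2 of the 38, and for 11% and 10.7% of all genes. Over all genes KO array 2 also had the lowest correlation with each WT array (0.970 to 0.972), against 0.980 to 0.981 for KO array 1. On KO array 2 the family medians were -0.04 for hnRNP, 0.22 for SR and -0.26 for SF3, against 0.03, -0.04 and -0.04 on KO array 1. The SR genes were split on KO array 2, with Srsf1, Srsf4, Srsf6 and Srsf10 below every WT array and the others above. In SF3, Sf3b6 and Sf3a1 were above every WT array there. KO array 2 also had the highest summed macrophage signal of the 6 arrays. Its Xist signal, 8884, was the highest of the KO arrays and below the 10251 to 12474 of WT.

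**Figure D4:**
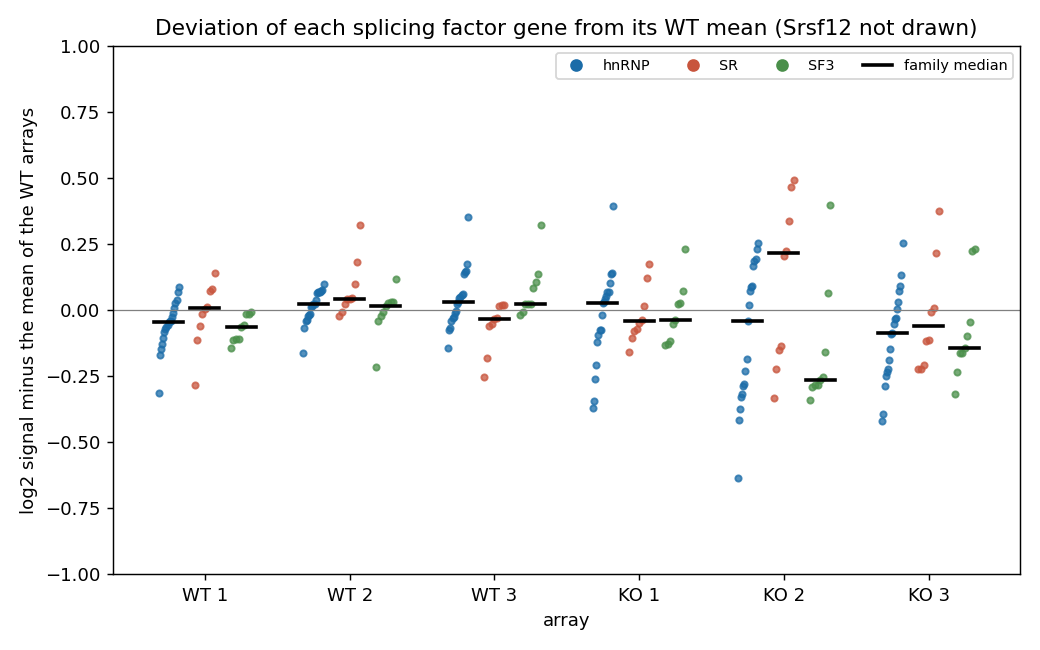
Log2 signal of each splicing factor gene on each array minus that gene's mean over the WT arrays (points, Srsf12 not drawn). Bars are family medians over all members. On KO array 2 the median is 0.22 for the SR genes and -0.26 for the SF3 genes, and both families have genes above and below their WT mean there.

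Genes around these factors were taken from 3 lists. Of 36 tested genes of the snRNP core and its partner particles, 0 passed with limma, and 13 (36.1%) had an unadjusted p under 0.05, 8 higher and 5 lower, against 20.3% of all genes (median log2 fold change 0.04). Lsm6 and Lsm4, of the ring that holds U6 RNA, had 0.43 and 0.38 (adjusted p = 0.0609 and 0.0861), and Prpf3 of the tri-snRNP -0.50 (adjusted p = 0.0806). Among 29 partners and kinases of SR proteins 2 fell and none rose (median -0.02), where 0.488% of all genes fell. Luc7l, a U1-associated protein, had signals of 1058, 1041 and 1001 on the WT and 692, 636 and 672 on the KO arrays (-0.63, SE 0.10, adjusted p = 0.0344). Prpf4b, a kinase of splicing proteins, had signals of 3121, 3034 and 2689 on the WT and 2298, 1638 and 1674 on the KO arrays (-0.67, SE 0.13, adjusted p = 0.0421). Both were lower on all KO arrays. With a gene's probe sets averaged they had -0.26 and -0.30 and missed the threshold, in a fit that called 0 of all genes. Adjusted over all probe sets, Prpf4b missed it too (limma adjusted p = 0.0523), while Luc7l passed (0.0342). Srpk3, the SR protein kinase of muscle, had -0.33 (adjusted p = 0.0820).

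Of 42 tested further splicing regulators, 1 fell and none rose (median -0.08), against the same 0.488% of all genes. Safb2, a scaffold attachment factor, had signals of 459, 533 and 409 on the WT and 299, 273 and 264 on the KO arrays, with no overlap (-0.74, SE 0.14, adjusted p = 0.0378). It had -0.48 and missed the threshold with its probe sets averaged, the fit that called 0 of all genes. Ewsr1, of the FET family, had signals of 9976, 9980 and 9766 on the WT and 8153, 8072 and 7524 on the KO arrays (-0.32, SE 0.07, adjusted p = 0.0507). Tardbp, which encodes TDP-43, had -0.32 (SE 0.09, adjusted p = 0.0925). The calls of Luc7l, Prpf4b and Safb2 were lost without WT array 1, 2 or 3 or KO array 3 (adjusted p = 0.114 to 0.192). Over all genes those fits called 0, 0, 4 and 2, against 162 with all arrays, and the fit without KO array 2 called 65. Without KO array 2 Luc7l passed (0.0449), and Prpf4b (0.0741) and Safb2 (0.0612) did not.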

How the data were processed

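The authors deposited 1 linear signal intensity per probe set and array. MAS5 in Affymetrix Expression Console is named in the submitters' processing notes, while its version and settings are not stated there. MAS5 scales arrays to a common target, so no further scaling was applied, and dim probe sets are noisy. Log2 was taken of the deposited intensity. Control probe sets (64) were left out, and 34945 of 45037 others had 1 gene symbol. For each gene the probe set with the highest mean log2 signal was used, and genes above the 40th percentile of an array on 3 of the 6 arrays were tested (12712). Differences, KO minus WT, were fitted in R 4.3.3 by limma 3.58.1, using lmFit and eBayes with an intensity trend. P-values were Benjamini-Hochberg adjusted over all genes tested, at a threshold of 0.05, and only genes past it are said to rise or fall. The procedure was tested on simulated data.

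The genes and lists were chosen with earlier results of these data known. Array values are printed for genes past the threshold, up to 12 without overlap by p, the 3 brightest of each family, and those whose probe sets differ in sign with 1 at an unadjusted p under 0.05. Which other probe sets are given by array was chosen after their values were seen, and the rest are given by log2 fold change. Of each list of related genes, those past the threshold and the 3 with the smallest p are named. Other genes are given by their log2 fold change, some with its SE or adjusted p, and Srsf12 also by array. Probe sets shared with other symbols, 4 of Hnrnpa3 and 3 of Hnrnpa1, were not used here. The comparison between probe sets of a gene, and centring on tested genes, were added after seeing the data. WT and KO arrays of the same number had correlations of their deviations from the group means of 0.02, 0.06 and 0.02. With 3 arrays a group these values cannot settle whether the numbers mark litters.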

Additional observations from a re-analysis of the deposited data

How the results depend on the processing

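The median over the 38 genes stayed between -0.14 and -0.05 in all alternatives run. The number of the 38 past the threshold was 1 in the analysis reported (162 over all genes) and 2 with quantile normalization (all genes 197). It was 0 with median centring (all genes 112, 76.8% higher against 61.7%) and 1 with centring on tested genes (312, 81.1% higher). It was 2 with the stricter filter (all genes 291) and 3 with array weights (542). The count was 0 without the filter, with probe sets averaged, without the intensity trend and with Xist as a covariate. It was 5 at an adjusted p of 0.10 (all genes 805), and 0 to 4 when single arrays were left out. In the fit with Xist, KO arrays 1, 2 and 3 had weights of 0.34, 0.87 and -0.21 in the KO effect. KO array 2 thus counted most and KO array 3 with the opposite sign, so that fit cannot separate genotype from sex. Hnrnpl had -0.59 in it (limma adjusted p = 0.0623). The count over the related lists, 3, was 5 with the stricter filter, 7 with array weights, 0 without the filter, averaged, without the trend or with Xist, and 0 to 12 when single arrays were left out. Over single probe sets the count was 1, where 147 of all probe sets passed. It was 3 with quantile normalization (194 of all) or a floor at the limit (220), and 2 with centring on tested genes (325). The stricter filter gave 4 (300 of all) and array weights 6 (608). It was 0 without the filter (14 of all), without the trend (1) or with Xist (5). When single arrays were left out it was 0 to 7, with 0 to 959 of all probe sets, both highest without KO array 1. With the replicate number as a block (replicate block) the counts were 1 for genes, 3 for the related lists and 3 for probe sets. That fit called 189 of all genes and 178 of all probe sets. Hnrnpl kept its call in it (adjusted p = 0.0490), though the numbers are not known to mark litters and not every array correlated best with its own number. Averaging the probe sets reversed Hnrnpl (1.31), where the second probe set is below the limit. Its adjusted p ranged from 0.0193 to 0.207 over 18 alternatives and passed in 7. Over all genes there were 162 calls in the analysis reported, 1 without the filter or without the trend, 0 with probe sets averaged, 6 with Xist, 542 with array weights, and 0 without WT array 1 or 2, 4 without WT array 3, 916 without KO array 1, 65 without KO array 2 and 2 without KO array 3. With 3 arrays a group, precision is limited, and signals near the limit are least reliable.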
